A study of Rattus norvegicus with 19 samples.

Results

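The genes described here encode the proteins of the cytosolic ribosome. They were chosen by name: every symbol made of Rpl or Rps, a number and optional letters, with the S6 kinases (Rps6k) left out. Where several probe sets named 1 gene, the one with the highest mean over all arrays was used. The rule found 42 of the 14217 genes measured, 29 of the large subunit and 13 of the small subunit. A further 26 symbols that fit the rule, among them Rpl10, Rps19 and Rps4x, were named only by probe sets that also named other genes, and they were not analysed here.

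The study measured RNA from the left ventricle of 19 male rats of the Dahl salt-sensitive strain (Harlan SS/Hsd) on Affymetrix arrays, with 1 array per sample. All rats, controls included, ate 6% NaCl from 6 weeks of age, a diet that raises their blood pressure and enlarges the heart, so no group on a normal diet is part of the comparisons. The baseline group (4 rats) was taken at 11 weeks of age, after 5 weeks of this diet and before any treatment. The other groups stayed on the diet and were treated for 4 weeks, to 15 weeks of age. The vehicle group (4 rats) received injections of the propylene glycol and alcohol carrier 3 times a week. The paricalcitol group (4 rats) received, on the same schedule, 200 ng of paricalcitol, a vitamin D analogue that activates the vitamin D receptor. The enalapril group (3 rats) received 90 ug of enalapril a day from an implanted pump, together with vehicle injections; enalapril inhibits angiotensin-converting enzyme. The combination group (4 rats) received both drugs. The design text describes this enalapril dose as the highest that did not lower blood pressure significantly, and the question behind the drug groups was what the drugs do to the heart apart from blood pressure.

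The ribosome is built from ribosomal RNA and a large set of proteins, nearly all present once per ribosome, and the cell makes these proteins in matched amounts. Ribosomal protein mRNAs are among the most abundant of any cell. In vertebrates they start with a run of pyrimidines (C and T), the terminal oligopyrimidine tract, through which mTORC1 and Larp1 control how much of the mRNA is translated. A growing heart muscle cell makes more ribosomes, and much of that control lies in ribosomal RNA synthesis and in translation, which an array of mRNA levels does not measure.

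The start of these genes carries the mark by which the family is known, so the 30 bases around the annotated transcription start (15 before and 15 after, 5′ to 3′ on the gene's strand) are shown for the genes on which the results below turn, with the longest run of C and T in capitals where it has at least 5 letters. The sequences are RefSeq's, from the rat assembly GRCr8, in which 35 of the 42 genes were found; Rps29, Rpl7, Rpl27, Rpl37a, Rpl23a, Rps9 and Rpl30 were not matched.
Rpl14 (chr8:129163605-129163634, plus strand): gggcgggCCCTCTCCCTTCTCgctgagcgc
Rpl5 (chr14:1995211-1995240, minus strand): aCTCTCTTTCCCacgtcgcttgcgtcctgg
Rpl35a (chr11:81235007-81235036, minus strand): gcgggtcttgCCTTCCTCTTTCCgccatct
Rpl11 (chr5:153560788-153560817, minus strand): ggggacttgaagcttgtttggtgctgggga
Rps24 (chr16:96502-96531, plus strand): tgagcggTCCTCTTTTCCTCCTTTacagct
Rps6 (chr5:106420526-106420555, minus strand): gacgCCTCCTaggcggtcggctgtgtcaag
Rpl34 (chr2:221962269-221962298, minus strand): CCCCTTCCTTTTCCTCTTCCggggacggtg
Rpl3 (chr7:113507976-113508005, minus strand): ccagcgcctgctcgaTCTCTatcggcggcg
Rpl3l (chr10:14258431-14258460, plus strand): gacctctggtgcctggtggggaggTCCCTT
Rpl34 is shown for the longest run found, 20 letters. A run of at least 9 letters lay in this window in 20 of 35 members (57.1%), against 7.51% of all 27457 promoters of the table. A run of at least 7 was found in 24 members (68.6%, against 17.8%) and one of at least 5 in 29 (82.9%, against 45.5%). Rpl11 had no run of 5 letters in its window, and the run of Rpl3l had 6 letters at the very end of it. The runs of Rpl5 and Rps6 lay wholly before the annotated start. The shorter motif CTTTCC, read on the gene's strand within 25 bases of the start, was present in 10 of 35 members (28.6%), against 2.27% of all promoters. Over the window of 300 bases and on both strands, CCGGAAG was found in 22.9% of members (9.22% of all promoters) and AAGATGGC in 11.4% (3.44%). CTTTCC was found there in 42.9% of members (26.4% of all promoters). Within 25 bases of the start and on the gene's strand, CCGGAAG was found in 1 of 35 members (2.86%, against 1.62%) and AAGATGGC in 2 (5.71%, against 0.969%). These matches describe letters around annotated starts, and no binding or translation was measured.

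On the arrays the family gave a strong and even signal. Of the 42 probe sets, 37 had a mean above 11 on the log2(intensity + 16) scale used throughout, from 11.05 (Rpl39) to 13.59 (Rps29). Brightness depends on the probes as well as on the RNA, so it is not compared between genes. The other 5 were Rpl3l at 10.12, Rps27l at 7.20, Rpl30 at 5.97, Rps13 at 5.19 and Rpl28 at 4.89. On this scale an intensity of 0 gives a value of 4, so the last 2 lay close to the floor, where changes in RNA barely show.

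The bright members varied little from rat to rat. Their SD within groups had a median of 0.079, against 0.13 for all 666 genes with a mean above 11 and 0.23 for all genes. The 666 genes were not matched to the members in brightness, so the low spread is not shown to be particular to the family. Rps29, a small subunit protein with a zinc-binding site, varied least. It measured 13.59, 13.61, 13.58 and 13.66 in the baseline rats, 13.58, 13.65, 13.61 and 13.54 with vehicle, 13.56, 13.58, 13.58 and 13.56 with paricalcitol, 13.59, 13.59 and 13.60 with enalapril, and 13.60, 13.55, 13.56 and 13.62 with the combination. The groups lay within a narrow band, in which the enalapril rats were just above the paricalcitol rats and the other pairs of groups overlapped. The 37 means over groups spanned a median of 0.12 from the lowest to the highest group. Rpl3 spanned the most, 0.43, and it also had the largest SD within groups among the bright members, 0.47.

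**Figure D1:**
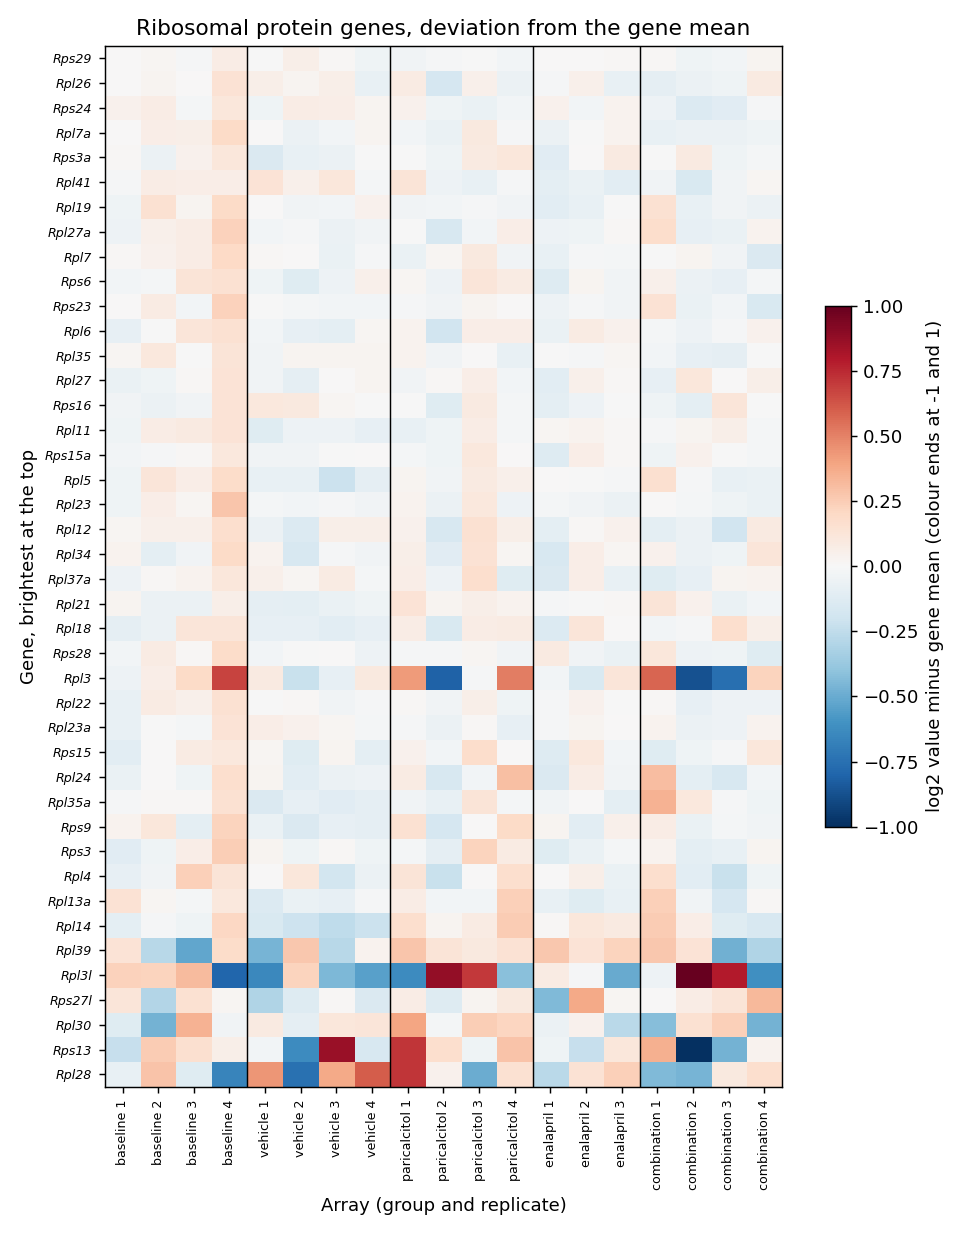
Each cell is the log2 value of 1 gene on 1 array minus that gene's mean over all 19 arrays; genes run from the brightest probe set at the top to the dimmest, and lines separate the 5 groups. Most bright members are close to 0 throughout; Rpl3, which mirrors Rpl3l, and Rpl39 are uneven, and the dim probe sets at the bottom are uneven within every group.

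No member passed the test for a difference among the 5 groups. In limma's F test over all groups, 0 of 42 passed an adjusted p (Benjamini-Hochberg over all 14217 genes) of 0.05, against 0.127% of all genes, and 4 had an unadjusted p under 0.05, against 10.5% of all genes. These 4 were Rpl14 (adjusted p 0.320, the smallest), Rpl41, Rpl5 and Rpl11. The same count of 0 held in each of the 7 comparisons, and in each of them under every alternative setting and with any 1 array of its groups left out. The p-values measure the spread between these samples; the labels give no more than a replicate number. Animal or array numbers in the descriptions run on within a group and do not mix between groups. What these blocks of numbers stand for is not stated, and an effect of block and one of treatment cannot be told apart.

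The intervals put a size on that result. Against baseline, the vehicle group's 95% interval lay inside a 1.5-fold change in either direction for 38 of 42 members, all but Rpl3, Rpl3l, Rps13 and Rpl28. With paricalcitol or with enalapril against vehicle this held for 37, with Rpl39 as the further exception, and with the combination against vehicle for 38. On the deposited values, which are not equalised between arrays, the interval stayed inside for 29, 34, 34 and 35 members in these comparisons. The median interval reached 0.13 to either side of the estimate (0.14 where enalapril was involved).

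From baseline to vehicle, a step that joins 4 more weeks of diet, age and injections, most members were slightly lower. The values of 35 of 42 were lower (48% of all genes were) and those of 7 higher (47.1%), with a median of -0.083 against 0 for all genes, but with each array centred on its median instead, 36 were higher and the median was 0.11. Without any equalisation 41 were lower, with a median of -0.21, and the median of all genes was then -0.20. The median moved to -0.042 when baseline rat 4 was left out. None passed the test (0.0844% of all genes did), and 5 had an unadjusted p under 0.05 (9.22% of all genes). The 4 vehicle rats lay below all 4 baseline rats in Rpl5, Rpl11, Rpl14 and Rpl35a, and 7.77% of all genes had groups that did not overlap. Smooth muscle and fibroblast marker sums were lower along this step, while those of endothelial, macrophage, T cell and red cell markers overlapped. The sums are of quantile-normalized values and were not tested. Smooth muscle and pericyte genes (8 of 8 measured, none close to the floor) summed to intensities between 3648 and 4630 in the baseline rats and between 2906 and 3503 with vehicle, and to between 3585 and 4694 with paricalcitol, 3176 and 4434 with enalapril, and 2737 and 3362 with the combination. Fibroblast genes (8 of 8 measured, Thy1 close to the floor) summed to between 26699 and 33781 at baseline and 21059 and 25538 with vehicle, and to between 19097 and 35723 with paricalcitol, 18976 and 26833 with enalapril, and 19796 and 29850 with the combination. Endothelial genes (7 of 8 measured, none close to the floor) summed to between 4885 and 6053 at baseline, 4938 and 5087 with vehicle, 5309 and 6437 with paricalcitol, 4974 and 5202 with enalapril, and 4446 and 5872 with the combination. The vehicle rats lay below all baseline rats in the smooth muscle and fibroblast sums and below all paricalcitol rats in the smooth muscle and endothelial sums. The sums are weighted to the brightest genes. As a mean of log2 deviations, the smooth muscle genes ran from -0.067 to 0.30 at baseline and from -0.26 to -0.043 with vehicle. Those groups then overlapped, and the other separations held. The part of these cells in the members' values was not tested. In a piece of tissue, fewer cells of a type and less RNA per cell cannot be told apart. The large subunit members had a median of -0.091 and the small subunit members one of -0.063.

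Rpl5 and Rpl11 together bind the smallest ribosomal RNA of the large subunit, and outside the ribosome they bind Mdm2 and so stabilise p53. Rpl5 measured 12.65, 12.81, 12.75 and 12.87 in the baseline rats and 12.61, 12.61, 12.47 and 12.60 with vehicle. It measured 12.71, 12.65, 12.77 and 12.74 with paricalcitol, 12.69, 12.68 and 12.67 with enalapril, and 12.84, 12.67, 12.61 and 12.62 with the combination. The vehicle rats were the lowest as a group, below every baseline, paricalcitol and enalapril rat, while the combination rats reached into their range. The vehicle group was lower than baseline by -0.19 (SE 0.056, limma adjusted p 0.239), and with arrays centred on their medians the difference was -0.019.

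Rpl11, too, was lowest with vehicle, at a smaller size. It measured 12.69, 12.81, 12.83 and 12.87 in the baseline rats and 12.62, 12.69, 12.69 and 12.66 with vehicle. In the treated groups it measured 12.66, 12.70, 12.82 and 12.72 with paricalcitol, 12.76, 12.78 and 12.75 with enalapril, and 12.73, 12.77, 12.80 and 12.72 with the combination. The vehicle rats lay below the baseline rats by a narrow margin, and below every enalapril and combination rat. The difference of vehicle from baseline was -0.14 (SE 0.041, limma adjusted p 0.245), and it was 0.055 with arrays centred on their medians.

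Rpl14, a large subunit protein, had the largest difference from vehicle of any bright member, 0.34 with paricalcitol. It measured 11.40, 11.49, 11.45 and 11.71 in the baseline rats and 11.35, 11.29, 11.24 and 11.29 with vehicle. With paricalcitol it measured 11.66, 11.53, 11.58 and 11.75, with enalapril 11.51, 11.61 and 11.59, and with the combination 11.75, 11.57, 11.38 and 11.34. Every paricalcitol and enalapril rat was above every vehicle rat, and 1 combination rat was not. The difference from vehicle was 0.34 with paricalcitol (SE 0.083, limma adjusted p 0.177), 0.28 with enalapril (SE 0.090, adjusted p 0.775) and 0.21 with the combination (SE 0.083, adjusted p 0.578; 0.13 without combination rat 1). None passed, and these comparisons share the vehicle rats. The difference with paricalcitol kept its direction under all settings tried, between 0.17 with arrays centred on their medians and 0.37. A second probe set of Rpl14 was dim, with a mean of 5.57, and did not follow the chosen one (correlation -0.13).

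**Figure D2:**
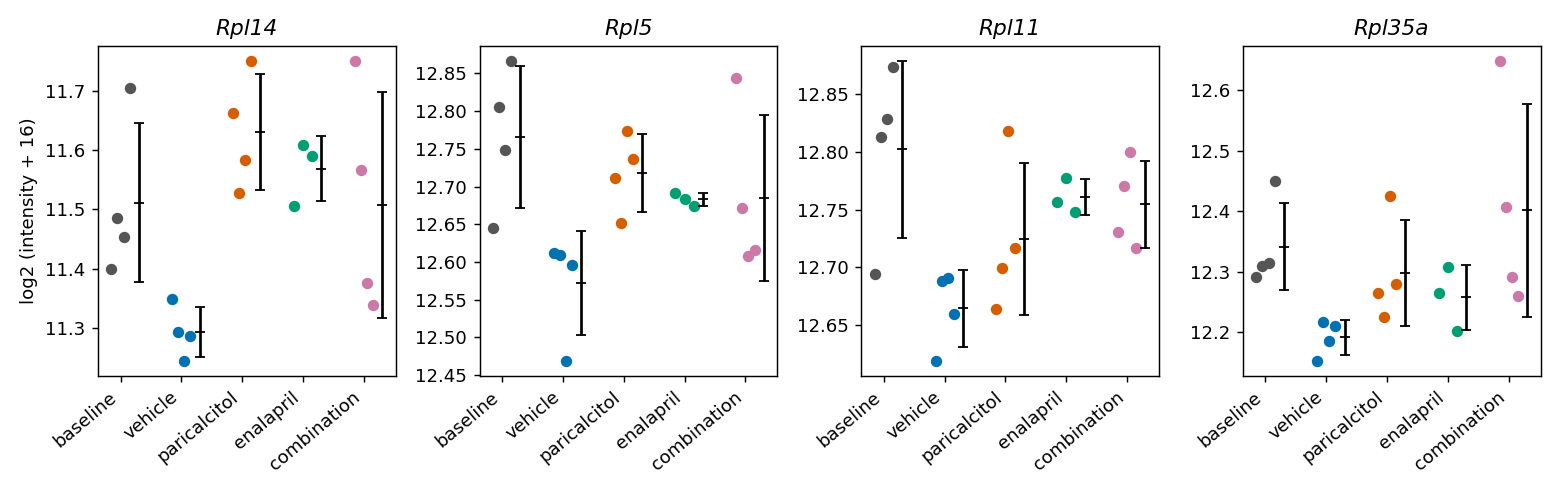
Points are the log2(intensity + 16) values of Rpl14, Rpl5, Rpl11 and Rpl35a in each rat, by group; bars give the mean and SD (n = 4, enalapril n = 3), and each panel has its own scale. These are the 4 members in which every vehicle rat lay below every baseline rat, so that order follows from the choice of genes. The vehicle rats are the lowest group in all 4 panels, and none of the differences passed the test.

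Paricalcitol against vehicle gave higher values in 31 of 42 members (49.3% of all genes), with a median of 0.048, but 36 were lower and the median was -0.12 with arrays centred on their medians. None passed (0.0141% of all genes), and 3 had an unadjusted p under 0.05 (9.66%): Rpl14, Rpl5 and Rpl21. The paricalcitol rats lay above all vehicle rats in Rpl14, Rpl21, Rpl35a and Rpl5 (5.04% of all genes had groups that did not overlap). Rpl21, a large subunit protein, measured 12.39, 12.39, 12.42 and 12.44 with vehicle and 12.62, 12.51, 12.54 and 12.51 with paricalcitol. All 4 treated rats were higher, by 0.13 on average (SE 0.042, limma adjusted p 0.291), and the difference was -0.023 with arrays centred on their medians. The second paricalcitol rat had the lowest mean over the members in its group, and without it the median difference of the members was 0.10. It was 0.030 without vehicle rat 2 and 0.022 without paricalcitol rat 3.

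**Figure D3:**
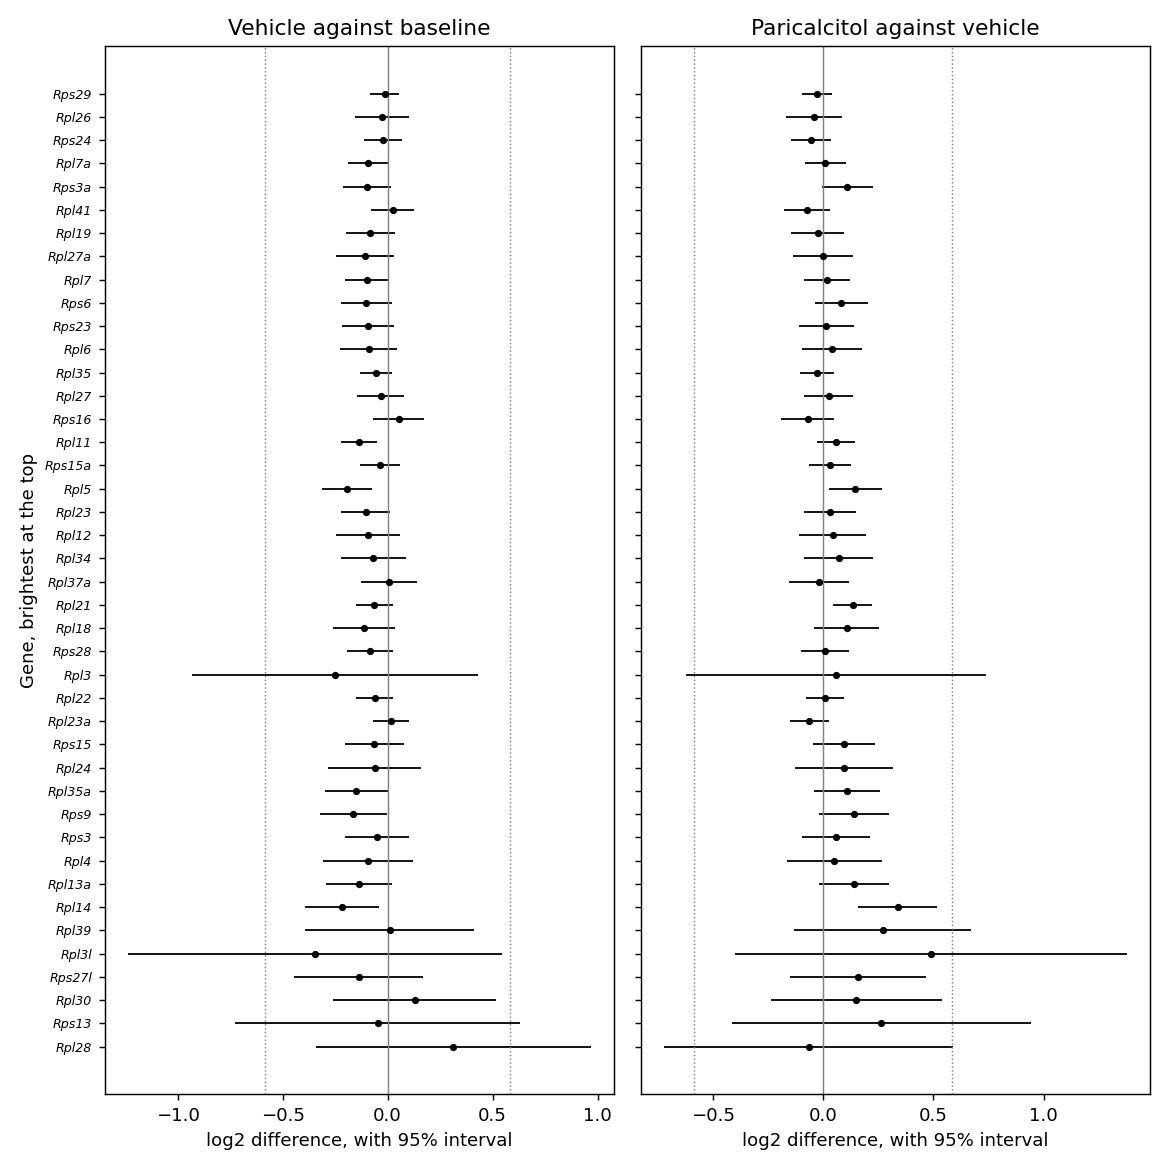
Each point is a member's log2 difference with its 95% interval from limma, for vehicle minus baseline (left) and paricalcitol minus vehicle (right); genes run from the brightest probe set at the top to the dimmest, and dotted lines mark a 1.5-fold change. Most intervals lie well inside the dotted lines, and the long ones belong to Rpl3, Rpl3l, Rpl39 and the dim probe sets.

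With enalapril against vehicle, 24 of 42 members were higher (48.4% of all genes) and 18 lower (46.6%), and the median was 0.0061, but 38 were lower, with a median of -0.12, when arrays were centred on their medians, and 39 were higher without equalisation, when the median of all genes stood at 0.17. None passed, as for all genes (0%), and 3 had an unadjusted p under 0.05 (5.64%). The groups did not overlap for 6 members (8.53% of all genes): Rpl14, Rpl5, Rpl11 and Rpl21 were higher with enalapril, and Rpl41 and Rps16 lower. Rpl41, the shortest protein of the family, measured 13.20, 13.11, 13.17 and 13.04 with vehicle and 12.96, 12.99 and 12.95 with enalapril. The 3 enalapril rats lay below all vehicle rats, by -0.16 on average (SE 0.053, limma adjusted p 0.775). The size depended on the scaling, with -0.059 in the deposited values and -0.32 with arrays centred on their medians.

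The combination against vehicle gave 20 members higher (50.9% of all genes) and 22 lower (44.6%), with a median of -0.0044 (33 lower with arrays centred on their medians). None passed (0.00703% of all genes) and 6 had an unadjusted p under 0.05 (7.68%). The combination rats lay above all vehicle rats in Rpl11, Rpl18, Rpl35a and Rps9 (4.24% of all genes did not overlap). Rpl35a, a large subunit protein mutated in some patients with Diamond-Blackfan anaemia, measured 12.15, 12.22, 12.19 and 12.21 with vehicle and 12.65, 12.41, 12.29 and 12.26 with the combination. The first combination rat was the highest of all 19 rats, and the difference was 0.21 (SE 0.070, limma adjusted p 0.497) with it and 0.13 without it. Rps24, a small subunit protein, went the other way, with 13.43, 13.54, 13.54 and 13.49 with vehicle and 13.42, 13.34, 13.36 and 13.46 with the combination. Those groups overlapped, and the difference was -0.11 (SE 0.042, adjusted p 0.572).

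No member told the combination from enalapril alone by any of the measures used. The combination against enalapril had 22 members higher (49.7% of all genes) and 20 lower, a median of 0.0017, no member past the test (0% of all genes), none with an unadjusted p under 0.05 in limma (5.3% of all genes) and none whose groups did not overlap (4.94%). The intervals of 37 members lay inside a 1.5-fold change. The combination against paricalcitol had 31 of 42 lower (47.3% of all genes) with a median of -0.040 (-0.015 without paricalcitol rat 3, -0.024 without paricalcitol rat 4, -0.019 without combination rat 3 and -0.060 without paricalcitol rat 2), but 30 higher with arrays centred on their medians. Here, too, none passed (0%), none had an unadjusted p under 0.05 (9.05%) and none was free of overlap (3.43%). The interaction term, which asks whether both drugs together differ from the sum of each, was negative for 32 of 42 members (47.5% of all genes) and positive for 10 (48.6%), with a median of -0.040 (-0.071 without paricalcitol rat 2, -0.072 without enalapril rat 1 and -0.026 without combination rat 3), and positive for 36 with arrays centred on their medians. None passed (0%), and 1, Rpl14, had an unadjusted p under 0.05 (6.96%). Its term was -0.40 (SE 0.12, limma adjusted p 0.496).

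Averaged over all 42 members, each gene's deviation from its own mean came to 0.036 ± 0.058 (SD, n = 4) in the baseline rats, -0.036 ± 0.022 (n = 4) with vehicle, 0.033 ± 0.058 (n = 4) with paricalcitol, -0.018 ± 0.038 (n = 3) with enalapril and -0.021 ± 0.046 (n = 4) with the combination. The baseline and paricalcitol rats overlap with the vehicle rats, which are low as a group. With arrays centred on their medians the baseline mean was -0.029 ± 0.16 and the vehicle mean 0.070 ± 0.064, so the order of the groups depended on how arrays were equalised. With quantile equalisation the baseline group was the highest of the 5 for 21 members and the lowest for 1, and the vehicle group was the lowest for 16. These counts were not made over all genes, so they are not shown to be particular to the family.

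**Figure D4:**
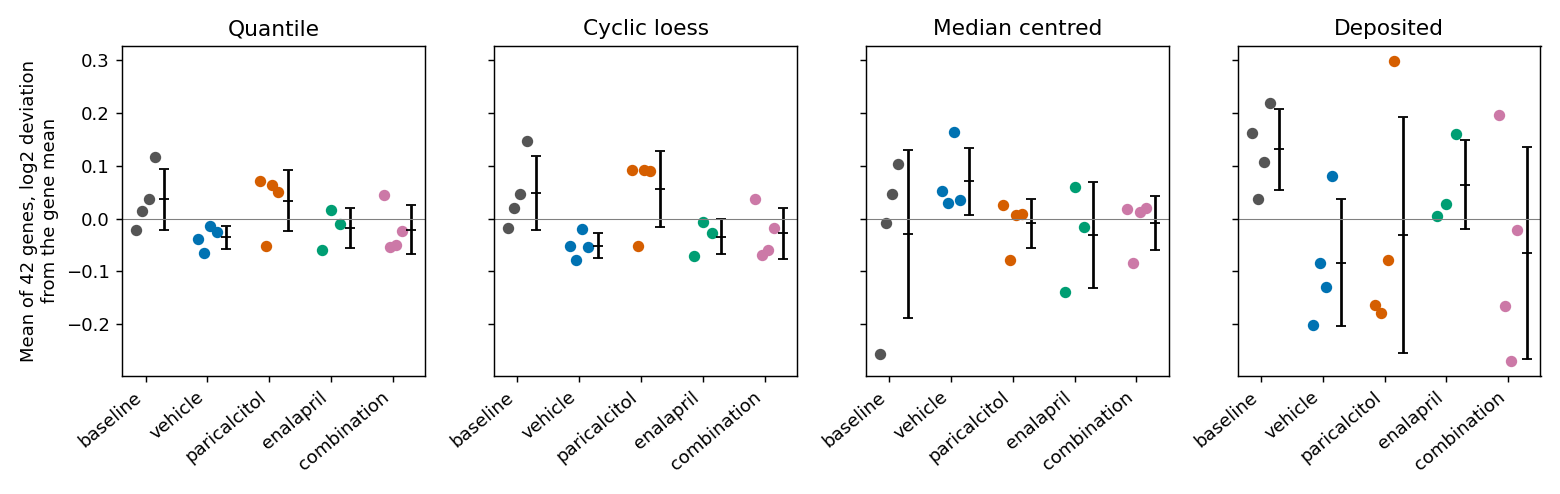
Each point is 1 rat's mean over the 42 members of the log2 deviation from the gene mean, by group, under 4 ways of equalising the arrays; bars give the mean and SD (n = 4, enalapril n = 3). Vehicle lies below baseline with quantile and cyclic loess equalisation and in the deposited values, and above it with each array centred on its median.

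Most pairs of bright members correlated positively from rat to rat. Over the 666 pairs among the 37 bright members the correlation across the 19 rats had a median of 0.36 and was above 0 for 89.8% of pairs. The means of the large and small subunit members correlated at 0.78. Arrays and their equalisation are shared by all members, and in the deposited values the median over pairs was 0.85, so these figures are a description of the arrays as well as of the genes. No such figures are given for other bright genes, so the correlations are not shown to be particular to the family. Rps6, the small subunit protein phosphorylated by S6 kinases, followed the mean of the other members most closely, with a correlation of 0.86. It averaged 13.00 ± 0.095 (SD, n = 4) in the baseline rats, 12.90 ± 0.073 (n = 4) with vehicle, 12.98 ± 0.076 (n = 4) with paricalcitol, 12.90 ± 0.078 (n = 3) with enalapril and 12.92 ± 0.059 (n = 4) with the combination. Its groups overlapped. Rpl3l followed the other members least, with a correlation of -0.58.

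Rpl3 and Rpl3l had the largest spread within groups of all members, 0.47 and 0.61. Rpl39 had 0.28, and the dim Rps13 and Rpl28 had 0.46 and 0.45. They encode 2 forms of the same large subunit protein, which sits near the catalytic centre of the ribosome. Rpl3 is made in every tissue, and Rpl3l is made in heart and skeletal muscle, where it takes the place of Rpl3 in part of the ribosomes. The 250 bases before each annotated start are given in RefSeq's GRCr8 to show how differently the pair begins. Capitals mark GGGCGG or TATAAA on either strand (CCGCCC and TTTATA on the other strand).
Rpl3 (chr7:113507991-113508240, minus strand): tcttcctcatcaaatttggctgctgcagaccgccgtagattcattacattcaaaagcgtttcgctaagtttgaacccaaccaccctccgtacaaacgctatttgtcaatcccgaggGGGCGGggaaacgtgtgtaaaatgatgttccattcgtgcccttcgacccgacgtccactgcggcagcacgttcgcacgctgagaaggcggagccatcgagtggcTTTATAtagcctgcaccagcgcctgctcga
Rpl3l (chr10:14258196-14258445, plus strand): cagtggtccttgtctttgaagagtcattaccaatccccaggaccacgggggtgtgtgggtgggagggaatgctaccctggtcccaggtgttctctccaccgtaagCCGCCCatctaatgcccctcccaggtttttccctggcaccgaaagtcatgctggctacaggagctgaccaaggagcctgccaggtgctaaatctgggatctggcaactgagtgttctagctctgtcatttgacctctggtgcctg
GGGCGG on either strand lay within 300 bases around the start in 22 of 35 members (62.9%, against 34.9% of all promoters), and both genes had it. TATAAA was found in 4 members (11.4%, against 14.3%), among them Rpl3 and not Rpl3l.

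Rpl3l measured 10.35, 10.34, 10.44 and 9.32 in the baseline rats and 9.48, 10.34, 9.67 and 9.58 with vehicle. It measured 9.49, 11.00, 10.83 and 9.70 with paricalcitol, 10.20, 10.11 and 9.62 with enalapril, and 10.07, 11.31, 10.91 and 9.51 with the combination. All groups overlapped, and high and low rats occurred side by side within the paricalcitol and combination groups. In both of these groups rats 2 and 3 were the higher and rats 1 and 4 the lower in Rpl3l. Rpl3 measured 12.37, 12.50, 12.62 and 13.11 in the baseline rats and 12.52, 12.20, 12.35 and 12.53 with vehicle. It measured 12.85, 11.62, 12.42 and 12.94 with paricalcitol, 12.40, 12.28 and 12.55 with enalapril, and 13.01, 11.56, 11.67 and 12.65 with the combination. The rats with the most Rpl3l had the least Rpl3: paricalcitol rat 2 and combination rats 2 and 3 were the 3 lowest in Rpl3 and the 3 highest in Rpl3l, and the fourth baseline rat was highest in Rpl3 and lowest in Rpl3l.

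**Figure D5:**
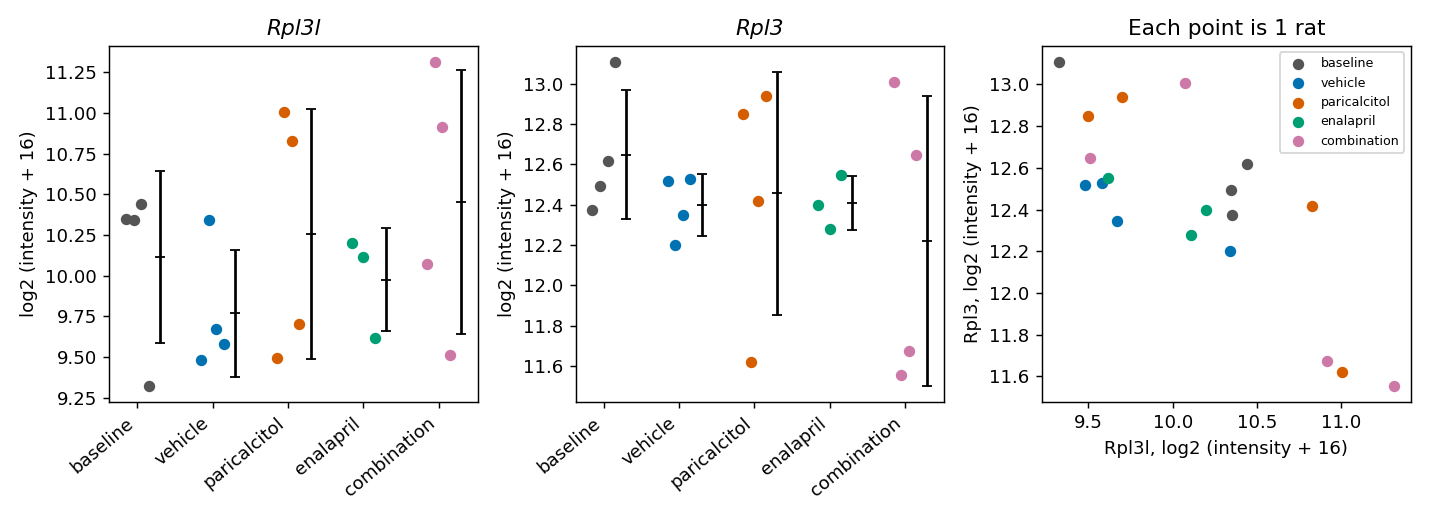
The left and middle panels give Rpl3l and Rpl3 in each rat by group, as log2(intensity + 16), with mean and SD (n = 4, enalapril n = 3); the right panel sets the same values against each other, 1 point per rat. The groups overlap in both genes, and across rats Rpl3 falls as Rpl3l rises, with 3 rats apart at the lower right.

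Group differences in the pair were small beside this spread. Rpl3l averaged 10.11 ± 0.53 (SD, n = 4) in the baseline rats, 9.77 ± 0.39 (n = 4) with vehicle, 10.26 ± 0.77 (n = 4) with paricalcitol, 9.98 ± 0.31 (n = 3) with enalapril and 10.45 ± 0.81 (n = 4) with the combination. Rpl3 averaged 12.65 ± 0.32, 12.40 ± 0.16, 12.46 ± 0.60, 12.41 ± 0.14 and 12.22 ± 0.72 in the same groups. The log2 ratio of Rpl3l to Rpl3 was compared in 6 pairs of groups with a two-sided exact permutation test. The largest difference, combination minus vehicle, was 0.86 with p 0.371 (exact permutation test, adjusted over the 6 comparisons 0.789), where the smallest p this design allows is 0.0286. The ratio of the signals of different probe sets has no meaning as a level, and only its differences between rats are used.

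Across the 19 rats the correlation of Rpl3l with Rpl3 was -0.79 (Pearson; permutation p 0.00011, 0.00044 adjusted over 8 relations) and -0.70 by rank (Spearman; permutation p 0.00122, 0.00244 adjusted). Without the 2 rats farthest from the median of Rpl3l, r was -0.64. Taken as deviations from the group means, r was -0.86 (permutation p 0.001, adjusted 0.002) and the rank correlation -0.89 (permutation p 0.00039, adjusted 0.00156). Without the 3 rats that lay apart, r was -0.49 over the remaining 16 and -0.76 as deviations from group means. A second probe set of Rpl3, with a mean of 10.12, correlated with the first at 0.91. The second probe sets of Rpl14, Rps24 and Rpl7 were dim and correlated with the chosen ones at -0.13, 0.22 and 0.089. The permutations here and below treat rats as independent. Same-numbered paricalcitol and combination rats deviated together, with correlations of 0.31 to 0.56, so the permutation p-values may be too small. The pairing of Rpl3l with Rpl3 was tested after the values had been seen. Rpl3 was not alone in it: ordered from the most negative correlation with Rpl3l, it held place 127 of 14216 genes. The 36 other bright members ranged from -0.59 (Rps24) to 0.32 (Rpl11).

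Other measures moved with the pair. Rpl3l correlated with Myh6, the alpha myosin heavy chain of heart muscle (r 0.76, permutation p 0.00022, adjusted 0.00059; 0.73 by rank and 0.73 without the 2 rats farthest from the median). In the 3 rats that lay apart the mean deviation of red cell markers was -0.59, -0.88 and -0.77, that of macrophage markers -0.60, -0.57 and -0.23, that of fibroblast markers -0.52, -0.68 and -0.26, and that of heart muscle markers 0.092, 0.16 and 0.098. Other rats were low in some of these too: paricalcitol rat 3, which did not lie apart in Rpl3, had a red cell score of -0.91 with macrophage and fibroblast scores of 0.39 and 0.67, vehicle rat 2 had a macrophage score of -0.28, and vehicle rat 1 a fibroblast score of -0.37. The heart muscle score was 0.12 in paricalcitol rat 3 and 0.088 in combination rat 1. It averages 10 genes, of which Myh6 itself varied most, from 11.36 to 14.02 over the arrays. Across all rats the red cell score correlated with Rpl3l at -0.60 (permutation p 0.00743, adjusted 0.00991; -0.42 by rank, p 0.0778; -0.44 without the 2 farthest rats) and with Rpl3 at 0.66 (permutation p 0.00197, adjusted 0.00315; 0.60 by rank; 0.53 without the 2 farthest rats). As deviations from group means these correlations were -0.64 (permutation p 0.0414, adjusted 0.0473) and 0.64 (permutation p 0.0689, adjusted 0.0689), so the second no longer passed. Of 14 listed red cell genes 7 were measured (Rhag close to the floor). Their summed intensity lay between 22866 and 25719 in the baseline rats, 20580 and 25349 with vehicle, 15411 and 25722 with paricalcitol, 17846 and 25800 with enalapril, and 14987 and 26760 with the combination. Macrophage genes (10 of 10 measured, Itgam close to the floor) summed to between 5788 and 10057, 5829 and 7412, 4537 and 9616, 6222 and 9049, and 3832 and 9517 in the same order of groups. The ranges of both sums were widest in the paricalcitol and combination groups, which hold the 3 rats. Their part in the result was not tested.

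The tissue label held against its markers. Of 11 heart muscle genes 10 were measured and none was near the floor, with Tnnt2, the heart's troponin T, between 14.14 and 14.32 on every array. Summed over those genes the intensity lay between 134301 and 143338 in the baseline rats, 134961 and 141111 with vehicle, 137241 and 149015 with paricalcitol, 134252 and 143264 with enalapril, and 140862 and 153169 with the combination. Of 6 B cell markers the 3 measured (Cd79b, Ms4a1 and Blk) had means under 5, close to the floor, as did Cd3d and Cd3g among the 8 T cell markers.

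Some members are single cases. Rpl39, a very short protein of the exit tunnel, measured 11.32, 11.19 and 11.28 with enalapril and 10.59, 11.32, 10.78 and 11.09 with vehicle. The vehicle rats reached as high as the enalapril rats, and the difference was 0.32 (SE 0.20, limma adjusted p 0.941). In each of the baseline, vehicle and combination groups 2 rats lay below 10.8. Rps27l, a p53-induced relative of Rps27, averaged 7.20 ± 0.20 (SD, n = 4) in the baseline rats and 7.06 ± 0.13 (n = 4), 7.22 ± 0.10 (n = 4), 7.19 ± 0.41 (n = 3) and 7.34 ± 0.14 (n = 4) with vehicle, paricalcitol, enalapril and the combination. Rpl22, which also binds RNA outside the ribosome, spanned 12.36 to 12.46 in its group means, and Rpl4, which reaches into the exit tunnel, 12.09 to 12.20. Neither passed in the F test (limma adjusted p 0.730 and 0.955).

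Ribosomal proteins with names outside the rule were looked at as well. Of 10 such genes 4 were measured: Rplp0 (the base of the ribosomal stalk), Rpsa (the laminin receptor, a small subunit protein), Rack1 (a scaffold on the small subunit) and Rpl7l1. All 4 were lower with vehicle than at baseline, from -0.16 (Rack1, SE 0.098, limma adjusted p 0.668) to -0.039 (Rplp0, SE 0.063, adjusted p 0.939), but 3 of 4 were higher with arrays centred on their medians. None passed in any comparison. In paricalcitol against vehicle 1 of them had an unadjusted p under 0.05, Rpl7l1, at 0.21 (SE 0.084, adjusted p 0.413).

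The machinery around the ribosome was described with lists of genes. The 39 measured genes of ribosome assembly in the nucleolus were lower in 33 cases with vehicle against baseline (median -0.095; 48% of all genes were lower), and higher in 30 with paricalcitol (median 0.14; 49.3% of all genes) and in 34 with enalapril (median 0.17; 48.4%) against vehicle. None passed in limma in any of these, and 4, 8 and 3 of 39 had an unadjusted p under 0.05, beside 9.22%, 9.66% and 5.64% of all genes. With arrays centred on their medians the counts were 23 lower, 21 higher and 31 higher. Tsr1, which helps the small subunit mature, differed by -0.29 from baseline to vehicle (SE 0.097, limma adjusted p 0.314) and by 0.36 from vehicle to enalapril (SE 0.10, adjusted p 0.775). Nop2, which methylates ribosomal RNA, differed by 0.37 between paricalcitol and vehicle (SE 0.12, adjusted p 0.338).

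The proteins of the mitochondrial ribosome, which translates the few proteins encoded by mitochondrial DNA, are given beside the cytosolic values, with no test between the lists. Of 76 measured genes, 72 were higher with the combination than with paricalcitol (median 0.19; 48.2% of all genes were higher), where 31 of the 42 cytosolic members were lower; with arrays centred on their medians both leaned the same way, with 75 of 76 and 30 of 42 higher. Against vehicle, 64 of 76 were higher with the combination (median 0.11; 50.9% of all genes) and 59 were lower with paricalcitol (median -0.082; 45.9% of all genes), and with arrays centred on their medians 49 were higher with the combination and 74 lower with paricalcitol. None passed in limma in these 3 comparisons, and 32, 14 and 7 had an unadjusted p under 0.05 (9.05%, 7.68% and 9.66% of all genes). With arrays centred on their medians 9, 0 and 10 passed, where 69, 0 and 214 of all 14217 genes did. With quantile equalisation 0, 1 and 2 of all genes passed. Mrpl49, a large subunit protein of the mitochondrial ribosome, differed by 0.34 between combination and vehicle (SE 0.056, limma adjusted p 0.0701).

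Translation factors and the kinases upstream gave no passing gene with quantile equalisation. Among 35 measured initiation factors 23 were higher and 12 lower with paricalcitol against vehicle, but 5 higher and 30 lower with arrays centred on their medians. Of these, 5 had an unadjusted p under 0.05 (9.66% of all genes). With arrays centred on their medians 1 passed (smallest limma adjusted p 0.0174), where 214 of all 14217 genes did. Eif1b, a close relative of the start codon selection factor Eif1, differed by -0.49 (SE 0.11, limma adjusted p 0.125). Among 10 elongation factors and their regulators 4 were higher and 6 lower with enalapril against vehicle (8 and 2 in the deposited values), with 1 unadjusted p under 0.05 (5.64% of all genes): Eef2k, the kinase that inhibits elongation factor Eef2, differed by -0.79 (SE 0.22, limma adjusted p 0.712). Among 15 genes of mTORC1 and S6 kinase signalling 8 were higher and 7 lower with the combination against vehicle (7 and 8 with arrays centred on their medians), with 3 unadjusted p under 0.05 (7.68% of all genes). In paricalcitol against vehicle 1 gene of that list passed with arrays centred on their medians (limma adjusted p 0.0495), beside the 214 of all genes. Larp1, which binds the terminal oligopyrimidine tract of such mRNAs, differed between combination and vehicle by -0.30 (SE 0.073, limma adjusted p 0.267). Among 14 genes of RNA polymerase I, which transcribes ribosomal RNA, 7 were higher and 7 lower from baseline to vehicle, but 1 higher and 13 lower in the deposited values, where the median of all genes was -0.20. Of them 1 had an unadjusted p under 0.05 (9.22% of all genes).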

How the data were processed

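The authors deposited an intensity on a linear scale for each probe set of each array, from Affymetrix arrays hybridised with biotin-labelled cRNA made from 5 ug of total RNA with an integrity number above 9, per the labels' protocols; how the authors summarised probes is not given in the sources used here. Array medians ran from 43.6 to 72.6, and 16.0% to 18.2% of values were below 0. No arrays held identical values. The number of arrays limits the precision.

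Arrays were quantile normalized. Negative values became 0, and log2(intensity + 16) was used. Of 31099 probe sets, 20826 named 1 gene (14217 genes, with the brightest probe set each), 436 several, 9780 none, and 57 were controls. limma 3.58.1 (R 4.3.3) fitted 1 mean per group to the 19 arrays (empirical Bayes with trend), with Benjamini-Hochberg adjustment over all genes and a threshold of 0.05, and the fit was tested on simulated data. The unit of the fit is log2 of the deposited intensity plus 16. Same-numbered rats of 2 groups deviated together (every correlation over 0.1) for 1 of 10 pairs of groups, paricalcitol and combination, where the labels give no shared source.

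The members and the gene lists were chosen with earlier results of these data known. Genes were named if they passed, were among the 3 smallest p of a comparison, had the largest or smallest SD or brightness, or belonged to a panel set by role. The limit of 11 for bright members, the tests of Rpl3 with Rpl3l (100000 resamples) and the omission of 3 arrays were chosen after seeing the values, as were Rps16, Rpl18, Rps9 and Rpl34 where they are named.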

Additional observations from a re-analysis of the deposited data

Results flagged for a closer look

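In groups of 4 rats, a value far from the other 3 (by Dixon's ratio of the gap to the whole range, at its 95% critical value) occurred 9 times in 96 groups examined, where chance gives about 1 in 20 groups, or 4.8. Rpl41 in baseline rat 1 was 13.05, with the others from 13.12 to 13.13. Rpl5 in vehicle rat 3 was 12.47, below the others at 12.60 to 12.61. Rpl35a in baseline rat 4 was 12.45, above the others at 12.29 to 12.32. Rpl35 in vehicle rat 1 was 12.76, and the other 3 shared 12.82, since quantile normalization gives the same rank on different arrays the same value. Rpl28 in vehicle rat 2 was 4.14, close to the floor, with the others from 5.27 to 5.50. Rpl3l in baseline rat 4 was 9.32, with the others from 10.34 to 10.44, and its log2 ratio to Rpl3 was -3.78, with the others from -2.18 to -2.03. In paricalcitol rat 2 the mean over all members was -0.052 and that over the small subunit members -0.046, with the others from 0.050 to 0.071 and from 0.058 to 0.073.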

How the results depend on the processing

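The count of members past the threshold was 0 in the F test and in all 7 comparisons under every setting in which they were fitted. The F test was not fitted with only the groups compared, and 1 setting kept only the bright members of the main fit. The count stayed 0 in the F test with each of the 19 arrays left out. It also stayed 0 in each comparison with any 1 array of its groups left out. The smallest limma adjusted p reached was 0.0709 (Rpl5, vehicle against baseline). The medians over the members turned on the equalisation of arrays. In the deposited values they were -0.21 (vehicle against baseline), 0.13 (enalapril against vehicle), -0.13 (combination against enalapril) and -0.16 (interaction), near the medians of all genes there, -0.20, 0.17, -0.11 and -0.14. With each array centred on its median they were 0.11 (vehicle against baseline), -0.12 (paricalcitol against vehicle), -0.12 (enalapril against vehicle), -0.10 (combination against vehicle), 0.021 (combination against paricalcitol) and 0.14 (interaction). Of 63 differences (9 of the members named above in 7 comparisons), 23 changed sign there, 7 in the deposited values and 2 with cyclic loess, all without passing. Among them, centred on medians, were Rpl11 (0.055 from baseline to vehicle, -0.050 with enalapril), Rpl21 (-0.023 with paricalcitol, 0.064 for the interaction), Rpl5 (-0.0081 with paricalcitol, -0.021 with enalapril) and Rpl35a (0.040 from baseline to vehicle, -0.068 with paricalcitol); Rpl35a also did so in the deposited values (-0.0080, combination against enalapril). The cause was not tested. Leaving out 1 array at a time gave medians of -0.11 to -0.042 for vehicle against baseline, 0.022 to 0.10 for paricalcitol against vehicle, -0.0082 to 0.027 for enalapril against vehicle, -0.027 to 0.016 for combination against vehicle, -0.018 to 0.016 for combination against enalapril, -0.060 to -0.015 for combination against paricalcitol and -0.072 to -0.026 for the interaction, so the medians near 0 had no settled sign. Paricalcitol against vehicle gave 0.10 without the 3 rats apart in Rpl3 and Rpl3l. The correlation of Rpl3l with Rpl3 was -0.54 in the deposited values and -0.49 without those 3 rats, and -0.82 to -0.72 with 1 array left out. With the replicate number as a block, 0 members passed in every comparison, the smallest adjusted p was 0.173, and no call changed; same-number correlations ran from -0.26 to 0.56, and pairing is not given by the labels. Probe sets near the floor, Rps13 and Rpl28, limit what can be said of those genes, and saturation of the brightest was not tested.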
